A study of Mus musculus with 2 samples.

Results

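The integrated stress response is the programme by which a cell that is short of amino acids, loaded with unfolded protein or otherwise stressed lowers bulk protein synthesis and raises the translation of a few transcription factors. Its sensor kinases phosphorylate the initiation factor eIF2, after which the mRNA of ATF4 is translated more efficiently, and ATF4 with its partners induces genes for amino acid synthesis and transport, feedback inhibitors and death effectors. In liver the programme is also known for secreted hormones that report stress to other organs. Because ATF4 and ATF5 are controlled at translation, their mRNA levels do not measure their activity.

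Expression of 10 genes of this programme was followed in liver RNA-seq, out of 52636 annotated genes in the count files. They were chosen by symbol from knowledge of the pathway, with earlier results of these data known. The 10 comprise the transcription factors Atf4, Atf5 and Ddit3, the effectors Trib3, Chac1 and Sesn2, the amino acid enzymes Asns, Phgdh and Psat1, and the hormone Gdf15. All 10 genes passed the floor of 20 counts over both libraries, which left 14433 genes for comparison. Each symbol had 1 row in the count files, although GENCODE M21 also gives the symbol Ddit3 to another, overlapping gene that has no row.

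Livers came from C57BL/6 mice fed chow to the age of 8 weeks. For both genotypes the RNA of 4 livers was combined into 1 sequencing library. The libraries are labelled flox (Mettl3 flox/flox, with no Cre) and HKO (Mettl3 flox/flox Alb-Cre+/-, a hepatocyte knockout). Mettl3 is the catalytic subunit of the m6A RNA methyltransferase, and both groups carry the floxed alleles. The albumin promoter drives Cre in hepatocytes, so liver cells that never expressed Cre keep the gene, and the control carries no Alb-Cre transgene. With 1 pool per genotype there was no replicate check, and every difference below describes 2 libraries and cannot be assigned to genotype.

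Mettl3 (ENSMUSG00000022160) did not have a lower count under the label HKO, with 156 counts in the library labelled flox against 220 in that labelled HKO (log2 ratio 0.45, 0.15 to 0.75). A count over the whole gene also takes reads from exons that Cre leaves in place and from other cells, and 18.4% of its exonic bases overlap a neighbouring gene, so it checks the label little. Were the labels exchanged, every ratio given here would be inverted. The libraries held 21457504 and 18438807 counts on annotated genes, and 1 count equals 0.0511 and 0.0494 CPM, a count scaled to library size. Defining hepatocyte genes such as Alb were abundant in both libraries. With the main scaling used below, all 10 were lower in the library labelled HKO (median log2 ratio −0.70), while all 12 macrophage markers were higher (median 0.77). Scaling by total counts adds 0.27 to each log2 ratio, so that Apoa1 (−0.03) was no longer lower, and these medians became −0.43 and 1.03. Fewer cells of a type and less RNA per cell cannot be told apart in such bulk samples.

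Psat1, Gdf15 and Asns, 3 of the 10 stress response genes, were past 2-fold higher in the library labelled HKO, and 0 were past 2-fold lower. Past 2-fold means a ratio of at least 2 in either direction after TMM scaling, with a 95% counting interval that excludes equality. Among all 14433 genes, 5.74% were past 2-fold higher and 4.66% past 2-fold lower. The interval lay above equality for 7 of the 10, namely Psat1, Gdf15, Asns, Phgdh, Ddit3, Atf5 and Trib3, where 28.3% of all genes did so. It lay below equality for Chac1 and Sesn2, where 27.7% of all genes did so, and included equality for Atf4. The median log2 ratio of the 10 genes was 0.41, against 0.01 for all genes tested, whose middle values ran from −0.31 to 0.37 between quartiles. Intervals cover counting error only, and since no molecular tags are described, PCR copies count as reads.

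**Figure D1:**
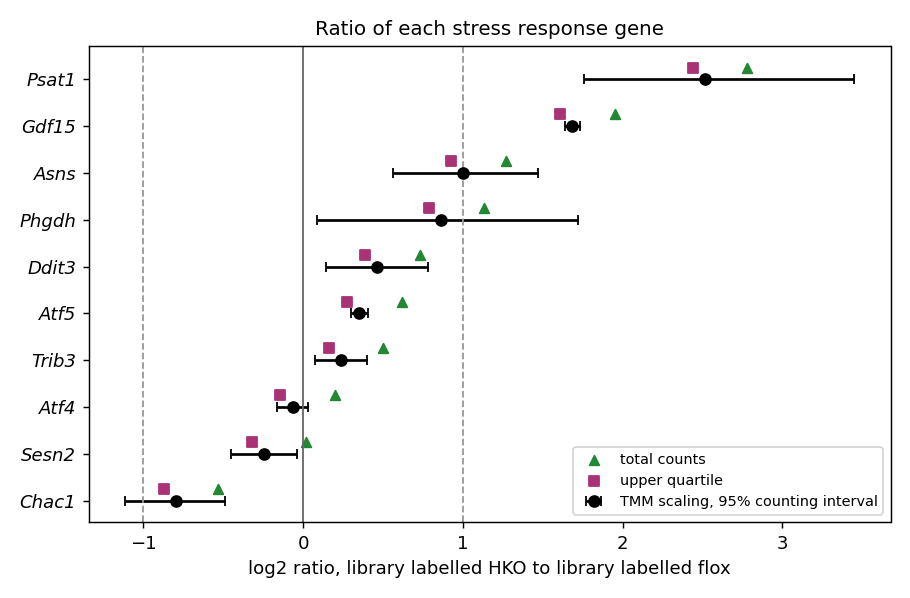
Log2 ratio of HKO to flox for each of the 10 genes. Black points with bars show the TMM-scaled ratio and its 95% counting interval, triangles and squares the ratio after scaling by total counts and by the upper quartile, and dashed lines 2-fold differences. Psat1 (2.51) and Gdf15 (1.68) stay right of the 2-fold line under the scalings drawn, Asns lies on it, and Atf4 and Sesn2 change side of 0 with total counts.

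Of the 3 transcription factors, Atf5 and Ddit3 were somewhat higher in the library labelled HKO and Atf4 was not resolved. Atf4 (ENSMUSG00000042406, chromosome 15, 80255184 to 80257541, plus strand, GRCm38), the central activator, had 1687 counts in the library labelled flox against 1666 in that labelled HKO. This is a log2 ratio of −0.07 (−0.16 to 0.03), and scaling by total counts turned it to 0.20 (0.10 to 0.30). Upper quartile scaling moved it to −0.14, with its interval then below equality. Whether, and in which direction, Atf4 differed beyond counting error thus depended on the scaling and not on the depth. Atf5 (ENSMUSG00000038539, chromosome 7, 44812256 to 44816658, minus strand), a related bZIP factor that is abundant in liver, had 5035 and 6635 counts. It was 1.27-fold higher in the library labelled HKO (1.23 to 1.32), and 4.11% of its exonic bases lie opposite Il4i1 and Nup62. Ddit3 (ENSMUSG00000025408, chromosome 10, 127290774 to 127296288, plus strand) encodes CHOP, a partner of ATF4 linked to cell death under prolonged stress. Its 141 and 201 counts gave a 1.38-fold higher value in the library labelled HKO (1.11 to 1.72). The annotation places 10.9% of Ddit3 exonic bases within other genes, most of them in the gene of the same symbol on the same strand, so its reads may be shared. Ratios of Atf5 and Ddit3 stayed above equality under each of the 10 settings run, between 0.27 and 0.62 and between 0.39 and 0.73 on the log2 scale.

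Promoter windows of the 10 genes were searched for the letters that ATF4 and its C/EBP partners are known to bind, TGATGNAA. The windows run from 250 bases before to 50 bases after each RefSeq gene start (GRCm38.p6), all 10 genes had at least 1, and both strands were read. The composite letters occurred in the windows of 3 of the 10 genes, Chac1, Trib3 and Asns, against 4.51% of 27025 genes (3.97% of all 32851 windows). The stretches are printed 5′ to 3′ on the strand of the gene because these are the members whose windows hold the pathway's own letters, with the match in capitals. In Chac1 and Trib3 the match is on the opposite strand and reads as the reverse complement.
Chac1, first matched base −193, chr2:119351009-119351096, plus strand: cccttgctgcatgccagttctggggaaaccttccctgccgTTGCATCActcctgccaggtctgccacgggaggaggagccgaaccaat
Trib3, first matched base 15 after the start, chr2:152344028-152344057, minus strand: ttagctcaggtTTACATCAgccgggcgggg
Asns, first matched base −23, chr6:7693210-7693272, minus strand: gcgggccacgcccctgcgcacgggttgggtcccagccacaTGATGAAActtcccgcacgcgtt

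Genes with the composite letters did not share a direction, since Chac1 was lower, Trib3 a little higher and Asns about 2-fold higher in the library labelled HKO. The cyclic AMP response element TGACGTCA was in the windows of 0 of the 10 genes and of 2.03% of all genes (1.79% of windows), and the antioxidant core TGACNNNGC was in those of Asns, Phgdh and Sesn2 and of 14% of all genes (12.4% of windows). A match describes letters, not a bound site, and no match says only that these letters are not in this window. Comparing all their windows, the longest run of letters shared by 2 of the 10 genes was 13 bases in Phgdh and Sesn2, on opposite strands, and it occurred in 15 of the 32851 windows (0.0457%). The longest on the same strand was 12 bases in Trib3 and Psat1, which occurred in 4 windows (0.0122%). The latter is printed, with the shared letters in capitals, because fewer windows hold it, a choice made after the windows were compared. The RefSeq start of Psat1 used here lies inside the GENCODE gene.
Trib3, first shared base −33, chr2:152344061-152344123, minus strand: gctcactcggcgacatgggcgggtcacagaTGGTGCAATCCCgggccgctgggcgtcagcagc
Psat1, first shared base −136, chr19:15925154-15925225, minus strand: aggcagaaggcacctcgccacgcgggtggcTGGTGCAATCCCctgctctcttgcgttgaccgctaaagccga

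The feedback and stress effectors went in both directions. Trib3 (ENSMUSG00000032715, chromosome 2, 152337422 to 152344032, minus strand), a pseudokinase that binds ATF4 and restrains it, had 557 counts in the library labelled flox against 678 in that labelled HKO. The 1.18-fold higher value (1.05 to 1.32) was small and beyond counting error with TMM scaling. Upper quartile scaling moved its log2 ratio from 0.24 to 0.16, with an interval that then included equality. Chac1 (ENSMUSG00000027313, chromosome 2, 119351229 to 119354381, plus strand) encodes an enzyme that degrades glutathione and is a well-known target of the ATF4 and CHOP branch. It had 234 and 139 counts, 1.74-fold lower in the library labelled HKO (1.40 to 2.16), the lowest ratio of the 10 genes. Sesn2 (ENSMUSG00000028893, chromosome 4, 132492032 to 132510501, minus strand), a leucine-binding inhibitor of mTORC1 signalling, had 413 and 360 counts. It was 1.19-fold lower (1.03 to 1.37) with TMM scaling, but scaling by total counts turned its log2 ratio from −0.25 to 0.02 (−0.19 to 0.23). Scaling by a list of housekeeping genes gave −0.19, with an interval that also included equality. Chac1 kept its direction under the 10 settings, between −0.87 and −0.53.

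The amino acid enzymes were the least abundant members and all 3 were higher in the library labelled HKO. Asns (ENSMUSG00000029752, chromosome 6, 7675169 to 7693254, minus strand), which makes asparagine from aspartate, had 62 counts in the library labelled flox against 129 in that labelled HKO. The ratio of 2.004 (1.48 to 2.77) sat just inside the 2-fold limit, and Asns was past it in 6 of 10 settings, with a log2 ratio between 0.93 and 1.27. Phgdh (ENSMUSG00000053398, chromosome 3, 98313170 to 98339990, minus strand) commits a glycolytic intermediate to serine synthesis. It had 21 and 40 counts, 1.82-fold higher (1.06 to 3.29), just outside the limit, and was past it only with scaling by total counts (log2 ratio 1.13). Of its 100-base words, 28.1% also occur in 8 other genes, so its reads are not certain to be its own. Adding the 5 such genes with a row, which held 6 and 7 counts together, gave 27 and 47 counts and a log2 ratio of 0.74 (0.04 to 1.49). Psat1 (ENSMUSG00000024640, chromosome 19, 15904678 to 15947337, minus strand) encodes the aminotransferase that follows Phgdh in the same route. It had 15 and 91 counts, 5.71-fold higher (3.38 to 10.9), rank 81 from the top among all genes tested. Psat1 was past 2-fold in 10 of 10 settings, and its low counts show in the width of the interval.

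Gdf15 (ENSMUSG00000038508, chromosome 8, 70629393 to 70632456, minus strand), a secreted hormone that reduces food intake through the brainstem receptor GFRAL, gave the largest gain in transcript amount of the 10 genes. It had 4608 counts in the library labelled flox against 15317 in that labelled HKO, 3.22-fold higher (3.11 to 3.32), rank 230 from the top. In CPM it went from 235.6 to 757, the 11th-largest gain of all genes. Gdf15 held 36.1% of the counts of the 10 genes in the library labelled flox against 60.6% in that labelled HKO. Summed over the 10 genes the level was 653 and 1249 CPM, and without Gdf15 it was 417 and 491 CPM, 1.18-fold higher. Leaving out Gdf15, the median log2 ratio of the others was 0.35.

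**Figure D2:**
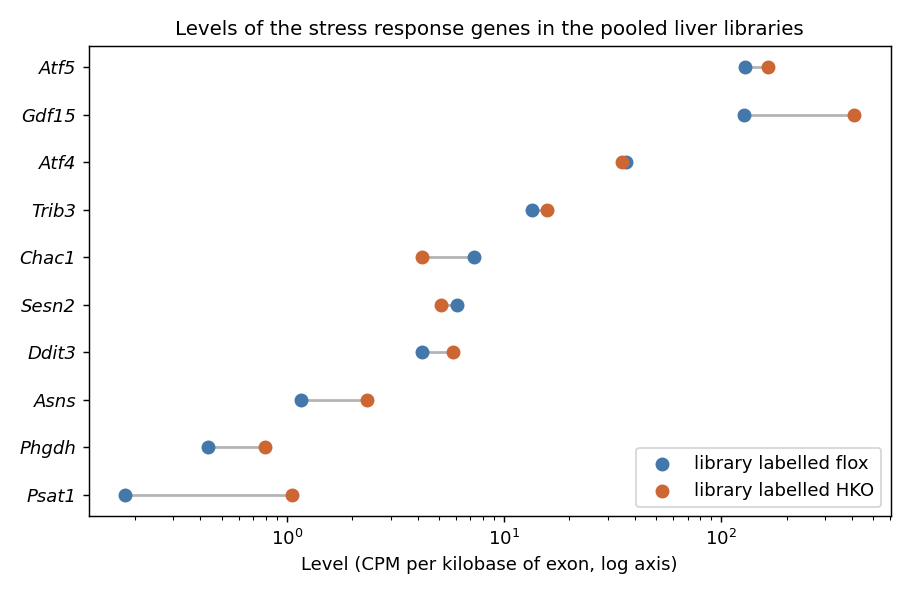
Level of each of the 10 genes in the pooled liver libraries, in CPM per kilobase of exon on a log axis, with 1 point per library and a line joining the pair. Gdf15 moves from 127 to 409 and Psat1 from 0.180 to 1.06, while the Atf4 points (36.6 and 34.9) nearly coincide.

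Levels between genes were compared per kilobase of exon. In the library labelled flox, Atf5 (129 CPM per kilobase) and Gdf15 (127) led the order and did not differ beyond counting error, with a ratio of 1.02 (0.975 to 1.06). Atf4 (36.6), Trib3 (13.4), Chac1 (7.31), Sesn2 (6.08), Ddit3 (4.21), Asns (1.16), Phgdh (0.432) and Psat1 (0.180) followed, each apart from the next. Levels thus spanned 716-fold from Atf5 to Psat1. In the library labelled HKO, Gdf15 (409) stood 2.48-fold above Atf5 (165), and Atf4 (34.9) and Trib3 (15.8) again came next. Ddit3 (5.80) and Sesn2 (5.12) were not apart, with a ratio of 1.13 (0.948 to 1.35), and Chac1 (4.20) came after both. Sesn2 exceeded Chac1 there by 1.22-fold (1.0005 to 1.49), at the edge of counting error. Asns (2.33) came before Psat1 (1.06) and Phgdh (0.796), which were not apart (1.33, 0.907 to 1.98). Atf5 stood 3.53-fold above Atf4 in the library labelled flox against 4.71-fold in that labelled HKO.

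**Figure D3:**
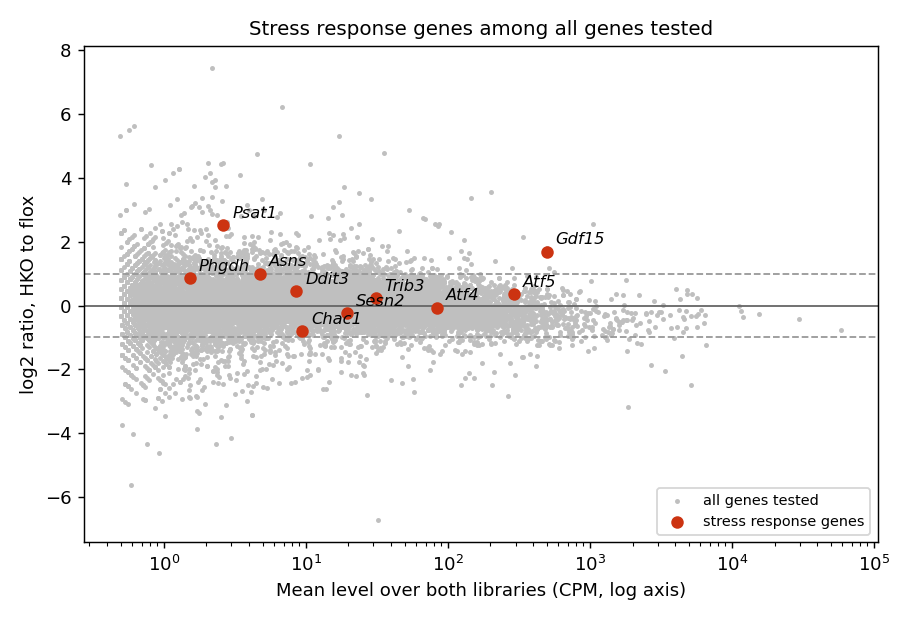
Log2 ratio of HKO to flox against the mean level of both libraries in CPM (log axis) for the 14433 genes tested (grey) and the 10 stress response genes (red). Dashed lines mark 2-fold differences. Gdf15 lies above the 2-fold line at a log2 ratio of 1.68, as does Jun (1.79) at a similar level, while Phgdh, Asns and Psat1 lie among low genes whose ratios scatter more.

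Comparing the genes with each other removes the scaling, because the ratio of 2 counts in one library is set against the same ratio in the other. Of the 45 pairs of the 10 genes, 37 differed beyond counting error. Pairs of other genes were not compared, so this count does not set the 10 genes apart from the rest. Relative to Atf4, Gdf15 was 3.37-fold higher (3.12 to 3.63), Ddit3 1.44-fold (1.15 to 1.81), Atf5 1.33-fold (1.24 to 1.44) and Trib3 1.23-fold (1.08 to 1.405). These 4 genes therefore gained on Atf4 whichever scaling is used. Trib3 gained 2.05-fold on Chac1 (1.62 to 2.60), and Psat1 gained 3.19-fold on Phgdh (1.49 to 6.81), its partner in serine synthesis. When the genes are ordered by ratio, only 4 of the 9 neighbouring pairs were apart, Psat1 from Gdf15 (1.83, 1.06 to 3.15), Gdf15 from Asns (1.60, 1.18 to 2.17), Trib3 from Atf4 and Sesn2 from Chac1 (1.47, 1.14 to 1.89). Asns and Phgdh (1.09), Phgdh and Ddit3 (1.34), Ddit3 and Atf5 (1.08), Atf5 and Trib3 (1.08), and Atf4 and Sesn2 (1.13) were not.

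The rest of the pathway was read from 13 lists of 141 further genes, of which 137 were tested. Of these, 14 (10.2%) were past 2-fold higher and 3 (2.19%) past 2-fold lower, against 5.74% and 4.66% of all genes. Their median log2 ratio was −0.10. Scaling by total counts, which adds 0.27 to each log2 ratio, turns that median positive, as it does every list or gene value less than 0.27 below 0. Upstream of Atf4 the differences were small. None of the 4 eIF2α kinases or the 8 subunits of eIF2 and its exchange factor eIF2B was past 2-fold. The kinase of endoplasmic reticulum stress, Eif2ak3 (PERK), had 463 and 696 counts, a log2 ratio of 0.54 (0.37 to 0.71), and the amino acid sensor Eif2ak4 (GCN2) had 299 and 309, a log2 ratio of 0.00 (−0.23 to 0.23). Of the 8 phosphatase subunits and kinase brakes, 1 was past 2-fold higher, the adaptor Nck1 (332 and 772 counts, 2.25-fold, 1.98 to 2.57). Ppp1r15a, the inducible phosphatase subunit that closes the response, had 587 and 588 counts.

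Among the 9 partner transcription factors 2 were past 2-fold higher and 0 lower, where 5.74% and 4.66% of all genes were. Atf3, a repressor and activator induced by many stresses, had 502 and 5394 counts, 10.4-fold higher in the library labelled HKO (9.48 to 11.4). Nupr1, a small stress-induced chromatin protein, had 21 and 153, 6.91-fold higher (4.45 to 11.7). Cebpb, a partner of ATF4 at the composite letters printed above, had 4823 and 3559, 1.40-fold lower (1.34 to 1.46), whereas Cebpg had 1027 and 1317, 1.24-fold higher (1.14 to 1.35).

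Of the 8 serine, glycine and one-carbon enzymes beside Phgdh and Psat1, 3 were past 2-fold higher and 0 lower, where 5.74% and 4.66% of all genes were. Mthfd2, Mthfd1l and Aldh1l2, mitochondrial folate enzymes of low abundance, were the 3 genes. Mthfd1l had 43 and 184 counts, 4.10-fold higher (2.96 to 5.91), Mthfd2 had 37 and 85, 2.21-fold (1.49 to 3.36), and Aldh1l2, of which 14.1% lies opposite another gene, had 14 and 38, 2.57-fold (1.39 to 5.25). Abundant cytosolic enzymes had lower values, with 33239 and 17337 counts for Aldh1l1 (log2 ratio −0.99, −1.01 to −0.96) and 3471 and 2400 for Shmt1 (−0.58, −0.66 to −0.50). Mitochondrial Shmt2 was also lower (4882 and 3757, −0.43, −0.49 to −0.36), and Psph, the last enzyme of serine synthesis after Phgdh and Psat1, had 67 and 92 counts (0.41, −0.06 to 0.89).

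Of 10 amino acid transporters tested, 2 were past 2-fold higher and 1 lower, where 5.74% and 4.66% of all genes were. Higher were the serine and alanine carrier Slc1a4 (61 and 294 counts, 4.63-fold, 3.53 to 6.25) and the carrier heavy chain Slc3a2 (1028 and 2363, 2.22-fold, 2.07 to 2.39). The glutamine carrier Slc38a2 was lower (10145 and 5152, 2.04-fold, 1.97 to 2.11). Of 13 enzymes of other amino acids and glutathione, 1 was past 2-fold higher, Aldh18a1 of proline synthesis (57 and 149, 2.52-fold, 1.85 to 3.49). The interval lay below equality for 8 of the 13 and above it for 4, where 27.7% and 28.3% of all genes did so, with a median of −0.13. The abundant Glul (19958 and 10416 counts, log2 ratio −0.99, −1.02 to −0.95) and Got1 (12782 and 6883, −0.94, −0.98 to −0.90) were lower. Chac2, the relative of Chac1, had 347 and 586 counts, 1.63-fold higher (1.43 to 1.87), opposite in direction to Chac1. Of 12 mTORC1 brakes, 1 was past 2-fold higher, the Redd1 relative Ddit4l (5 and 87, 15.4-fold, 6.94 to 53.1). The interval lay below equality for 7 of the 12 and above it for 2, against the same 27.7% and 28.3% of all genes, with a median of −0.24. Redd1 itself, Ddit4, was lower (2371 and 1721 counts, log2 ratio −0.51, −0.60 to −0.42), as was Tsc2 (1444 and 944, −0.66, −0.78 to −0.54). Sesn1 (400 and 325 counts, log2 ratio −0.35, −0.56 to −0.13) and Sesn3 (552 and 497, −0.20, −0.38 to −0.02) lay near Sesn2. The 14 tRNA synthetase genes and exporters held 0 past 2-fold, with a median of 0.03, which upper quartile scaling turned to −0.05.

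Of 10 Tribbles family members and death effectors, 3 were past 2-fold higher and 0 lower, where 5.74% and 4.66% of all genes were. The 3 were the BH3 protein gene Pmaip1 (6 and 39 counts, 5.88-fold, 2.64 to 18.2), the death receptor Tnfrsf10b (6 and 61, 9.15-fold, 4.27 to 27.8) and Gadd45a (255 and 617, 2.34-fold, 2.02 to 2.72), of which 19.1% lies opposite another gene. Trib1, a relative of Trib3, had 2008 and 3859 counts, 1.86-fold higher (1.76 to 1.96). Of 11 liver hormones tested beside Gdf15, 1 was past 2-fold higher, Fgf21, the fasting and stress hormone (17 and 97, 5.39-fold, 3.28 to 9.86). The interval lay below equality for 4 of the 11 and above it for 2, where 27.7% and 28.3% of all genes did so, with a median of −0.11. Angptl4 (4634 and 2780 counts, log2 ratio −0.79, −0.85 to −0.72) and Lect2 (1254 and 760, −0.77, −0.90 to −0.64) were lower. The growth factor binding protein gene Igfbp1, also known as an ATF4 target, had 31052 and 28205 counts (log2 ratio −0.19, −0.21 to −0.16), and the activin subunit gene Inhbe had 472 and 451 (−0.11, −0.30 to 0.08).

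Of the 19 genes of the IRE1 and ATF6 arms of the unfolded protein response, 0 were past 2-fold higher and 2 lower, and 15 intervals lay below equality, where 4.66% and 27.7% of all genes did so, with a median of −0.36. With total counts 0 of the 19 were past 2-fold lower and the median was −0.10. Creld2, a protein of the endoplasmic reticulum, had 857 and 372 counts, 2.38-fold lower (2.11 to 2.70), and the chaperone gene Hyou1 had 4539 and 2011, 2.33-fold lower (2.21 to 2.46). Hspa5, the chaperone BiP, had 14587 and 17385, 1.15-fold higher (1.13 to 1.18). The 11 genes of the mitochondrial unfolded protein response held 0 past 2-fold, with a median of −0.01 that became 0.25 with total counts.

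**Figure D4:**
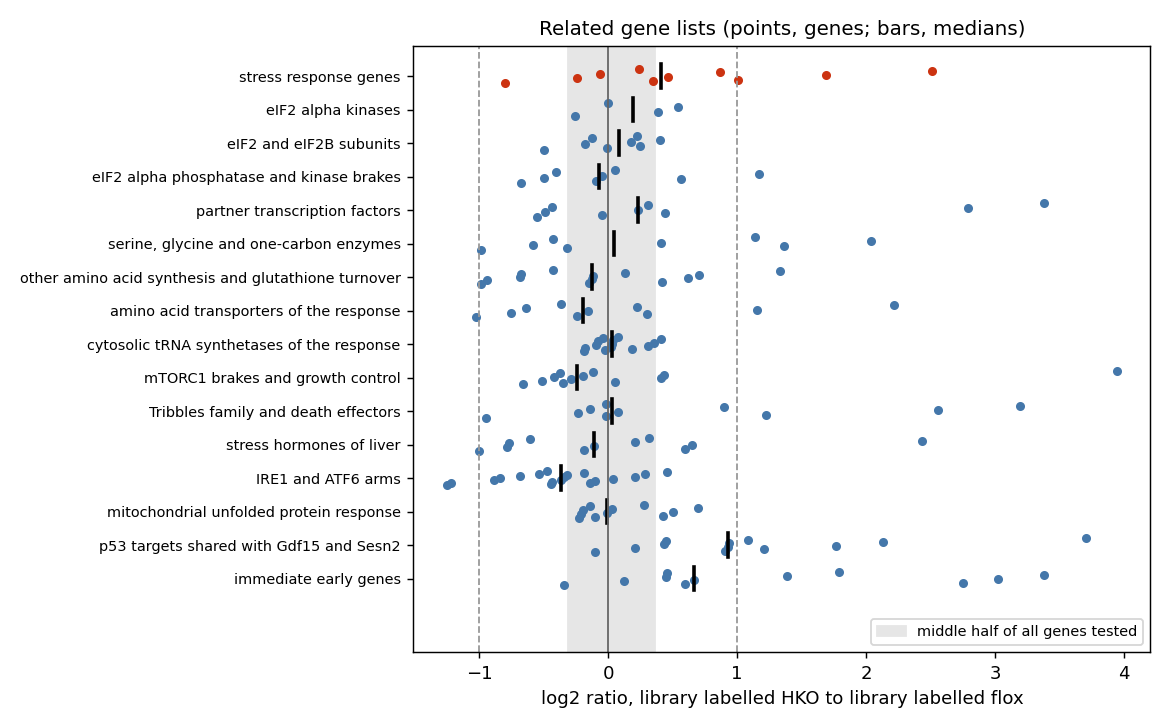
Log2 ratio of HKO to flox for the 10 stress response genes (red), 13 pathway lists and 2 further lists (blue), with 1 point per tested gene, a bar at the median of each list, dashed lines at 2-fold and the range between the quartiles of all genes tested shaded. The members' bar lies at 0.41, the IRE1 and ATF6 bar at −0.36 and the p53 target bar at 0.93.

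Gdf15 and Sesn2 are also known targets of p53, and Atf3 belongs to the immediate early genes that respond within minutes to many stimuli, so both sets were read beside them. Of 12 other p53 targets, 5 were past 2-fold higher and 0 lower, where 5.74% and 4.66% of all genes were. The interval lay above equality for 11 of the 12, where 28.3% of all genes did so. Their median of 0.93 ran from 0.86 to 1.20 over the scalings. The antiproliferative gene Btg2 had 2465 and 11184 counts, 4.39-fold higher (4.20 to 4.59), and the receptor gene Eda2r had 6 and 87, 13.0-fold higher (6.19 to 39.3), whereas Cdkn1a had 1347 and 1608, 1.15-fold higher (1.07 to 1.24). Of 11 immediate early genes, 5 were past 2-fold higher and 0 lower, against 5.74% and 4.66% of all genes, with a median of 0.67. Atf3, described above, is 1 of these 5, and without it 4 of 10 were past 2-fold higher with a median of 0.63, among them Jun (4411 and 15757, 3.46-fold, 3.34 to 3.57) and Myc (336 and 2341, 6.73-fold, 6.01 to 7.58).

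Summed levels of the marker lists moved as well. They were 1.54-fold lower for the 10 hepatocyte markers in the library labelled HKO and higher for the 12 macrophage markers (594 and 893 CPM), with no marker of either list at 0. Alb alone (74634 and 43822 CPM) made up most of the hepatocyte sum. The 8 endothelial markers summed to 432 and 363 CPM, and the 8 stellate cell markers to 312 and 365.5 CPM. The stellate markers went both ways, with Acta2 3.63-fold and Des 2.39-fold lower and Lrat 2.14-fold higher. So did the cholangiocyte markers (76.0 and 66.5 CPM), with Krt19 4.57-fold and Krt7 2.70-fold lower and Sox9 4.14-fold higher. Of 9 exocrine pancreas markers 7 were at 0 in both libraries, and Cela1 had 428 and 142 counts, 3.11-fold lower. Of the 8 neutrophil and lymphocyte markers Ly6g was at 0 in both, and the leukocyte gene Ptprc had 164 and 354 counts, 2.08-fold higher. The part of these cell type differences, and of the p53 target and immediate early differences, in the ratios of Gdf15 and the other members was not tested.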

How the data were processed

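The deposited values are raw counts of read pairs per gene, which the authors made with HTSeq from alignments to GRCm38. The submitters' processing notes name TopHat2 and HTSeq 0.6.1, while the methods of the paper name Hisat2 and a later HTSeq, so the tools behind these counts are uncertain. Whether counting used strand is not given in the sources used here. Each library held 52947 rows. The 311 rows of unannotated loci (0.328% and 0.261% of counts) were left out. GENCODE M21 named 52403 identifiers.

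Members and lists were chosen with earlier results of these data known. Every member is named, with list genes past 2-fold and abundant or closely related genes of each list. Some of these list genes were chosen after their values were seen. Ratios, labelled HKO over labelled flox, used TMM factors from edgeR 4.0.16 and a prior of 0.5 counts. The 95% interval is the exact binomial (Clopper-Pearson) interval of a gene's share of counts in 1 library. Intervals of pair ratios are Wald intervals of the log odds ratio, and those between neighbouring levels are exact binomial. With 1 library per genotype, no test across genes was made and no p-value is given. Exon lengths came from GENCODE M21 and promoter windows from RefSeq. Alternatives covered scaling (including DESeq2 1.42.0 size factors), the floor, the prior and the fold limit. Adding the copies of Phgdh and leaving Atf3 out of the immediate early genes were chosen after seeing the data. The ratio, its interval and the 2-fold call were tested on simulated counts. These held counting error alone at the same scaling factors, so variation between mice and error of the scaling were not part of that test. Python 3.11.15, NumPy 2.4.6, pandas 2.3.3, SciPy 1.17.1, matplotlib 3.10.9 and R 4.3.3 were used.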

Additional observations from a re-analysis of the deposited data

How the results depend on the processing

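Scaling by total counts moves every log2 ratio up by 0.27, and the median of the 10 genes from 0.41 to 0.67. It turned the unresolved ratio of Atf4 to 0.20, above equality, and that of Sesn2, below equality with TMM scaling, to an unresolved 0.02. Upper quartile scaling moved Atf4 to −0.14, below equality, and Trib3 to 0.16, which was then unresolved. Scaling by a list of housekeeping genes left Sesn2 unresolved at −0.19. Psat1 and Gdf15 were past 2-fold in 10 of 10 settings, Asns in 6, Phgdh with total counts alone, and the other 6 genes in 0. At a 1.5-fold limit Chac1 became the 1 member past the limit lower. Over all genes, 828 higher and 672 lower became 1504 and 409 with total counts, 458 and 316 with a floor of 100 counts, 1872 and 1488 at a 1.5-fold limit, and 319 and 308 at a log2 limit of 1.5. In the 13 pathway lists, the 14 genes higher became 8 at a log2 limit of 1.5. The 3 lower became 0 with total counts, 7 with upper quartile scaling, 19 at a 1.5-fold limit and 0 at a log2 limit of 1.5. Pairs of members do not depend on the scaling, and an exact conditional interval also left 4 neighbouring pairs apart.

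No paired analysis was possible because each genotype has 1 library. Leaving out a replicate was not run, as it empties a group. Counting error limits Psat1, Phgdh and Asns most. Variation between mice or preparations was not measured.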
